A study of Mus musculus with 10 samples.

Results

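Il17rb, the IL-25 receptor chain, its relatives among the IL-17 receptors, and the type 2 cytokines with Il4ra were followed through regulatory T cells that had lost SHP-1. The genes are Il17rb, Il17ra, Il17rc, Il17re, Il4, Il13, Il5, Il4ra and Il1rl1, and each was read at every probe set that the array annotation pairs with that gene alone. Il17rb, Il4 and Il13 were chosen by their lower level in homozygous knockout cells in these same arrays, so their differences in that direction are given as values with no test. A probe set was found for 8 of the 9 genes, of 18193 genes in all, and these 8 have 14 probe sets of the 45037 tested. Il1rl1, the IL-33 receptor, had no probe set paired with it in the annotation used and was not analysed here.

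The cells were CD4+CD25+ T cells, among which regulatory T cells are found, taken with an isolation kit from pooled lymph node sites of BALB/c mice aged 17 to 19 days and not cultured. The mice were homozygous (me, 3 arrays) or heterozygous (he, 3 arrays) for knockout of SHP-1, a tyrosine phosphatase and the product of Ptpn6, or wild type (WT, 4 arrays), and me mice have the motheaten phenotype. The labels name no cell type to which the loss is restricted, and the motheaten phenotype is an inflammatory disease. Arrays are labelled as biological replicates with nothing further on separate animals, so p-values measure the spread between these samples. Transcripts were measured on Affymetrix arrays after amplification from 20 ng of total RNA.

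IL-25 binds a receptor made of Il17rb and Il17ra, and the signal passes through the adaptor Act1, encoded by Traf3ip2. Il17ra is shared: with Il17rc it forms the receptor of IL-17A and IL-17F, and with Il17re that of IL-17C. IL-25 is an alarmin of type 2 immunity, which drives cells that carry Il17rb to make IL-4, IL-5 and IL-13. IL-4 and IL-13 in turn signal through Il4ra and Stat6, and SHP-1 is known as a negative regulator of that pathway. In lymph nodes, Il17rb is carried by some invariant NKT cells, innate lymphoid type 2 cells and activated T cells.

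Promoter sequence is shown for Il17rb because a neighbouring gene starts close by, and for Il4 and Il13 because they were chosen together with it. On the reference genome GRCm38.p6 the start of Il17rb faces that of Chdh, choline dehydrogenase, on chromosome 14, and the starts are 103 bases apart. The 104 bases from the Il17rb start back to the first base of Chdh are printed 5′ to 3′ on the strand of Il17rb (chr14:30008897-30009000, minus strand). The 250 bases before the starts of Il4 (chr11:53618666-53618915, minus strand) and Il13 (chr11:53634703-53634952, minus strand) are printed in the same way. All 3 come from RefSeq. Capitals mark the AP-1 motif TGANTCA in the first and GGAAA or its reverse complement TTTCC, the core bound by NFAT, in the others.
Il17rb: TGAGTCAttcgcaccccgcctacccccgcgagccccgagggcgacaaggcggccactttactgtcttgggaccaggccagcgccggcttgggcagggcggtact
Il4: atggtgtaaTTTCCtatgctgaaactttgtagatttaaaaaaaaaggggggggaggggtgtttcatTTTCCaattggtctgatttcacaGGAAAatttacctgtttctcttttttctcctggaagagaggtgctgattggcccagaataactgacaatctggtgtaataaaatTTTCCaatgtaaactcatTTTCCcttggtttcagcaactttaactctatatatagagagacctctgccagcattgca
Il13: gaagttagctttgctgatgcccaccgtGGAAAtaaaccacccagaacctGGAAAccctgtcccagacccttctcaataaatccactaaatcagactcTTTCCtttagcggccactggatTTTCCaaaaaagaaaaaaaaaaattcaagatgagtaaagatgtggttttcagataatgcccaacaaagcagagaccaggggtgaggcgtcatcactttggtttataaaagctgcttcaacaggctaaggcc
The Il17rb stretch held 1 match to TGANTCA, which spans the start of Chdh. It was the only match in the 250 bases before the Il17rb start, which are more than the stretch printed. A match occurred in 6.75% of 32851 promoter windows of 250 bases. The Il4 window held 5 matches to GGAAA on either strand and the Il13 window 4. At least 1 match was found in 55.6% of windows, at least 4 in 1.59% and at least 5 in 0.39%. Il13 also held 1 GATA match (AGATAA or else AGATAG or else TGATAA or else TGATAG, on either strand), present in 26.5% of windows. Il4 held 1 match to a STAT motif, TTC then any 4 bases then GAA, present in 5.85% of windows, and no printed stretch matched the form with any 3 bases between them, present in 7.02%. The 250 bases before the Il17rb start held no match to the GGAAA, GATA or STAT letters. A match describes these letters, and binding was not measured.

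The arrays fell into 2 sets by their correlations, which the labels do not name. Set A holds me 1, me 3, he 1, WT 1 and WT 2, and set B holds me 2, he 2, he 3, WT 3 and WT 4. Correlations ran from 0.970 to 0.996 within sets and 0.854 to 0.944 between them, and the first principal component carried 82.0% of the variance. Me 3 lay nearer to set B on that component than the other arrays of its set. Each genotype has arrays in both sets, so differences are also given within sets and with set as a block. Ptpn6 separated the genotypes: at its dimmer probe set the log2 values were 8.05, 8.31 and 8.17 in me, 8.75, 8.71 and 8.98 in he, and 9.22, 9.08, 9.62 and 9.13 in WT. All 9 measured markers of Treg and CD4 T cells were at or above the median level, among them Foxp3, Ctla4, Ikzf2 and Cd4. Of these, 6 were higher and 3 lower in me than in WT, with a median log2 difference of 0.10 (0.14 with set as a block). Their summed normalised intensity was 18134 to 20044 in me, 18002 to 19345 in he and 16403 to 18072 in WT. Every me array was thus above every WT array in this sum. The ratio of the 3′ to the 5′ Gapdh control probe sets, a sign of RNA quality, was 9.92 to 13.8 in me, 7.88 to 9.71 in he and 7.84 to 9.53 in WT, so it was higher in every me array than in any he or WT array.

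Values are log2(intensity + 32), quantile normalised between arrays, unless deposited intensity is named, and differences between genotypes were tested with limma over all 45037 probe sets with Benjamini-Hochberg adjustment at 0.05. Because of the added 32, a fold understates the change of a dim gene. A level is that of 1 probe set and is not set against another gene's. In the fit of all 10 arrays the share of probe sets called was 0% for me and for he cells set against WT, and likewise for me set against he. At an unadjusted p under 0.05 limma had 282, 134 and 301 probe sets in these comparisons (0.626%, 0.298% and 0.668% of all). These shares, which are percentages, are each below the proportion of 0.05 that chance alone gives. Ptpn6, the gene knocked out, was itself not called at its brighter probe set, where me minus WT was -0.72 ± 0.10. The lack of a call in this fit therefore does not show that a gene is unchanged. With array set as a block the shares called were 0.00666% (3 probe sets), 0% and 0%, in the same order. None of the 11 probe sets of Il17ra, Il17rc, Il17re, Il5 and Il4ra was called. In this blocked fit 4.31%, 2.13% and 3.21% of all probe sets had an unadjusted limma p under 0.05.

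Il17rb was lower in me cells than in he or WT cells. The deposited intensities were 503, 383 and 280 in me, 1076, 497 and 617 in he, and 1302, 1030, 619 and 783 in WT. Every me array was below every WT array on that scale, while me 1 was slightly above he 2. After normalisation the log2 values were 8.91, 8.67 and 8.42 in me, 9.76, 9.22 and 9.70 in he, and 9.97, 9.98, 9.53 and 9.72 in WT. No me array then overlapped an array of either other genotype. The means were 8.67 ± 0.25 in me (SD, n = 3), 9.56 ± 0.30 in he (n = 3) and 9.80 ± 0.22 in WT (n = 4). Me cells differed from WT cells by -1.13 ± 0.18 (log2, SE), which is 2.20-fold lower, and this is the difference by which the gene was chosen. It was the second lowest of the 45037 probe sets. Me minus he was -0.89 ± 0.19. The probe set was bright, above 90.2% of all probe sets.

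Il17rb was lower in me within both array sets. The me minus WT difference was -1.31 in set A, -0.96 in set B and -1.17 ± 0.15 with set as a block. Me minus he was -1.10 in set A and -0.79 in set B. Between he and WT the difference was -0.24 ± 0.18, with a limma adjusted p of 1.0. The gene was not chosen by this comparison, but the WT arrays were used in the choice. The he minus WT tests of Il17rb, Il4 and Il13 are therefore not free of it. The he and WT arrays overlapped, and the 95% interval of the difference was -0.64 to 0.16. That value rests largely on he 2: it was -0.07 without that array. In bulk RNA, fewer cells that carry Il17rb and less Il17rb RNA per cell cannot be told apart, here and for the genes that follow.

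**Figure D1:**
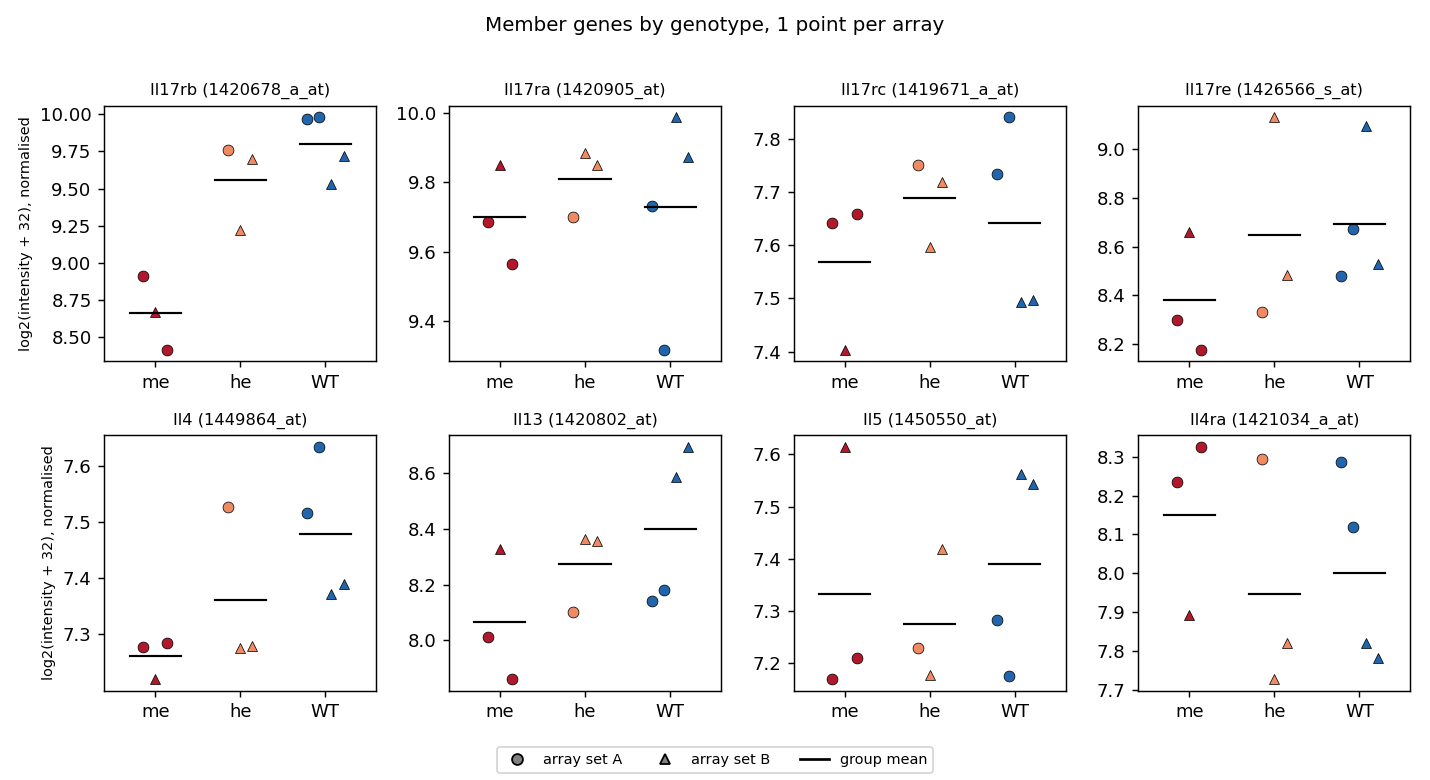
Level of 8 member genes, each at the probe set with the highest mean, as quantile normalised log2(intensity + 32), with a point per array in me, he and WT cells from left to right. Circles are arrays of set A, triangles are arrays of set B and bars are group means. Il17rb has every me array below every he and WT array, and Il4 has every me array below every WT array.

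Il17ra, the chain shared by the IL-17 receptors, did not differ detectably between genotypes. Its log2 values were 9.69, 9.85 and 9.57 in me, 9.70, 9.88 and 9.85 in he, and 9.73, 9.32, 9.99 and 9.87 in WT. The me arrays lay inside the range of the WT arrays. Me minus WT was -0.03 ± 0.15, with a 95% interval of -0.37 to 0.32 and a limma adjusted p of 1.0. He minus WT was 0.08, with a 95% interval of -0.26 to 0.43. The sign of both differences turned in other settings. A second, dimmer Il17ra probe set averaged 8.70 ± 0.42 in me, 8.89 ± 0.50 in he and 8.61 ± 0.53 in WT (SD, n = 3, 3 and 4).

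Il17rc, the partner of Il17ra for IL-17A and IL-17F, had log2 values of 7.64, 7.40 and 7.66 in me, 7.75, 7.60 and 7.72 in he, and 7.73, 7.84, 7.49 and 7.50 in WT. Its level was near the median of all probe sets, and the genotypes overlapped. The me minus WT difference was -0.07 ± 0.11, with a limma adjusted p of 1.0. Me minus he was -0.12 without a block, and -0.04 when me 2 was left out. With set as a block it was -0.20, with a limma adjusted p of 0.999. Il17rc was the only gene outside the 3 chosen ones whose me arrays lay below the he arrays, and below the WT arrays, in each array set. Of all probe sets, 9.63% lay below he and 7.85% below WT in this way, so nothing is read from it. Set B has 1 me array and set A has 1 he array. Its second probe set averaged 7.23 in me, 7.22 in he and 7.23 in WT.

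Il17re, the partner of Il17ra for IL-17C, had log2 values of 8.30, 8.66 and 8.18 in me, 8.33, 9.13 and 8.48 in he, and 8.48, 8.67, 9.09 and 8.53 in WT. Me 1 and me 3 were the lowest arrays, and me 2 lay inside the WT range. At this probe set me minus WT was -0.31 ± 0.22, with a limma adjusted p of 1.0. It was -0.19 without WT 3 and -0.15 within set B. Its other probe sets were level between genotypes, with me minus WT differences of -0.02 and -0.04, so the probe sets of the gene did not show the same size of difference. Il17re and Il17rc lie next to each other on chromosome 6, which also holds Ptpn6, 140 and 139 protein-coding genes away. Il17ra is on that chromosome too, 61 genes from Ptpn6.

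Il4, which encodes the cytokine IL-4, was dim, below the array median in 9 of 10 arrays. The deposited intensities were 116, 124 and 121 in me, 139, 127 and 129 in he, and 136, 149, 144 and 147 in WT. All me arrays were below all he and WT arrays on that scale, by a few units. The log2 values were 7.28, 7.22 and 7.29 in me, 7.53, 7.28 and 7.28 in he, and 7.52, 7.63, 7.37 and 7.39 in WT. After normalisation the me arrays stayed below the WT arrays and overlapped the he arrays. Il4 differed by -0.22 ± 0.09 in me minus WT, with -0.29 in set A, -0.16 in set B, and this is a difference by which the gene was chosen. He minus WT was -0.12 ± 0.09, with an adjusted p of 1.0, and ran from -0.20 without he 1 to -0.07 without WT 2. No detection call was used here, so it is not known whether intensities this low stand above background.

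Il13, which encodes IL-13, had deposited intensities of 210, 311 and 183 in me, 239, 291 and 287 in he, and 244, 233, 344 and 394 in WT. The log2 values were 8.01, 8.33 and 7.86 in me, 8.10, 8.36 and 8.36 in he, and 8.14, 8.18, 8.59 and 8.69 in WT. Me 2 was inside the WT range, so the groups overlapped, while within each array set the me arrays were below the WT arrays. Il13 differed by -0.33 ± 0.17 in me minus WT, with -0.22 in set A and -0.31 in set B, again a difference by which the gene was chosen. It ran from -0.47 without me 2 to -0.23 without me 3. He minus WT was -0.13 ± 0.17, and ran from -0.21 without WT 1 to -0.03 without WT 4. With set as a block it was -0.19 ± 0.06, with a limma adjusted p of 1.0, and the he arrays were below the WT arrays in each set.

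Il5, which encodes the eosinophil growth factor IL-5 and was not chosen by its difference, had log2 values of 7.17, 7.61 and 7.21 in me, 7.23, 7.18 and 7.42 in he, and 7.28, 7.17, 7.56 and 7.54 in WT. It was below the array median in all 10 arrays. Me 2 was the highest of the 10 arrays and me 1 was among the lowest, so the me arrays spanned the WT range. Il5 differed by -0.06 ± 0.14 in me minus WT, with a 95% interval of -0.38 to 0.26 and an adjusted p of 1.0.

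Il4ra, the chain through which IL-4 and IL-13 act, had log2 values of 8.24, 7.89 and 8.33 in me, 8.29, 7.73 and 7.82 in he, and 8.29, 8.12, 7.82 and 7.78 in WT. The arrays of set A were higher than those of set B in all 3 genotypes. Its me minus WT difference was 0.15 ± 0.18, with a 95% interval of -0.26 to 0.56 and an adjusted p of 1.0. It was 0.08 with set as a block, 0.08 within set A and 0.09 within set B. With an array left out it ran from 0.06 without me 3 to 0.28 without me 2. Its other probe sets averaged 7.79 ± 0.20 and 7.48 ± 0.04 in me, 7.69 ± 0.16 and 7.45 ± 0.04 in he, and 7.80 ± 0.17 and 7.48 ± 0.10 in WT (SD).

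Over the 14 probe sets, 2 had every me array below every WT array, Il17rb and Il4, where 0.835% of all probe sets did. Both belong to genes chosen by that comparison, so nothing is read from the count. For he below WT the count was 0, against 0.573% of all probe sets, and for me below he it was 1 (Il17rb), against 1.1%. Within each array set, 4 of 14 lay below WT in me (7.85% of all probe sets), 1 in he (4.92%), and 4 lay below he in me (9.63%). Of the 11 probe sets of genes that were not chosen by their difference, 1 (9.09%) lay below WT in me within each set, near the share of all probe sets, and 0 had me and WT arrays that did not overlap. Of the 8 genes, 7 had a lower mean in me than in WT, with a median difference of -0.14, and 4 of the 5 genes that were not chosen did so, with a median of -0.06, beside 0.00 over all genes. In 2-sided exact permutation tests over arrays, 18 differences by which no gene was chosen gave p from 0.171 to 0.914 and adjusted p from 0.882 to 0.914. Those of Il17rb, Il4 and Il13 in he against WT share the WT arrays used in the choice. The smallest p these group sizes allow is 0.0571 for 3 against 4 arrays and 0.1 for 3 against 3.

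**Figure D2:**
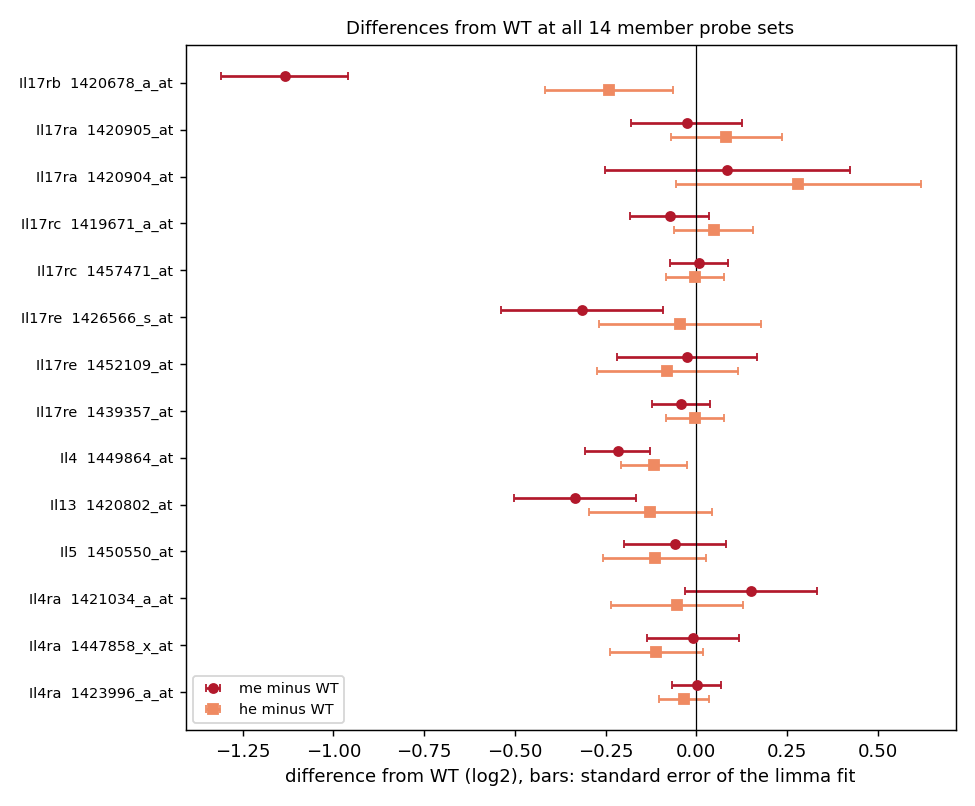
Difference from WT on the log2 scale at each of the 14 member probe sets, with me minus WT as dark circles above he minus WT as pale squares, and bars of 1 standard error of the limma fit on either side. Il17rb stands at -1.13 in me minus WT and -0.24 in he minus WT, and the probe sets of the genes that were not chosen lie between -0.31 and 0.15 in me minus WT.

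The neighbours of these genes were read in the same arrays. Chdh had log2 values of 8.07, 8.59 and 7.86 in me, 8.56, 8.82 and 9.25 in he, and 8.76, 8.65, 8.97 and 9.09 in WT. Every me array was below every WT array, and me 2 was above he 1. Chdh was 1.62-fold lower in me than in WT, a difference of -0.69 ± 0.21 with a limma adjusted p of 1.0. With set as a block it was -0.62 ± 0.11, with an adjusted p of 0.604, and it was -0.74 in set A, against -0.44 in set B. He minus WT was 0.01 ± 0.21 for Chdh. Actr8, a chromatin remodelling subunit on the other side of Il17rb, had a me minus WT difference of 0.09 ± 0.14. On chromosome 11, Il4 lies between Kif3a and Il13, and Rad50 separates Il13 from Il5. Me minus WT was -0.05 for Rad50, 0.04 for Kif3a and -0.14 for Irf1, which follows Il5.

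**Figure D3:**
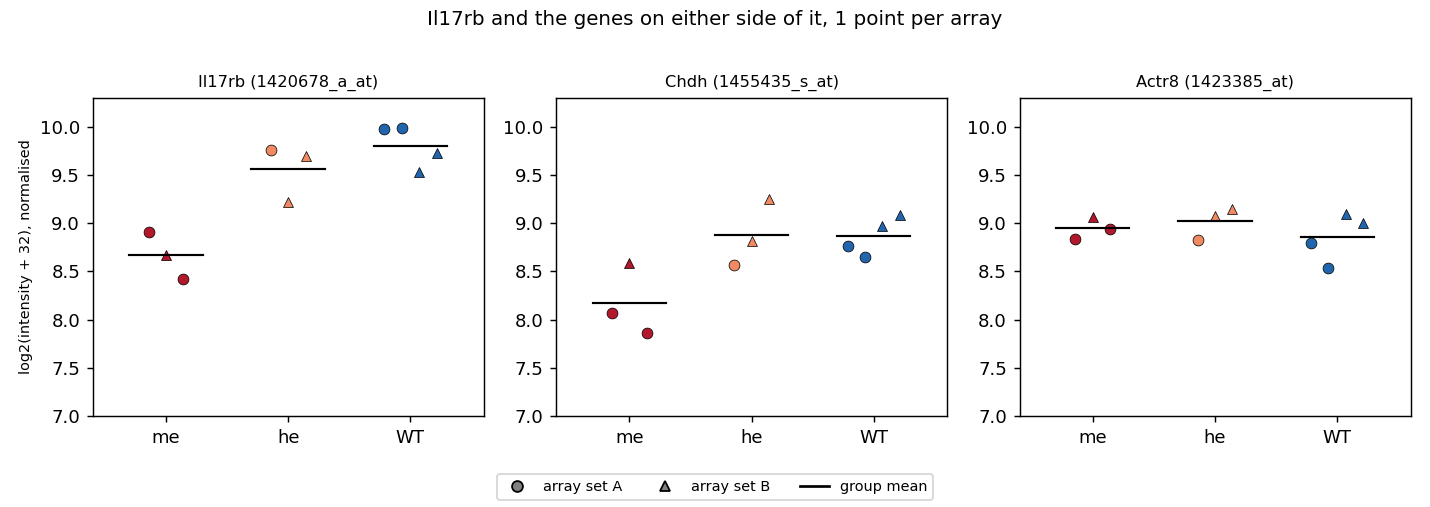
Level of Il17rb and the genes beside it as quantile normalised log2(intensity + 32), with a point per array in me, he and WT cells from left to right and bars at group means. Circles are arrays of set A and triangles arrays of set B. Il17rb and Chdh have every me array below every WT array, and Actr8 differs by 0.09 between me and WT means.

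The members were also followed across the 10 arrays as a description, after the mean of each array set was taken out. Il4 had a correlation of 0.889 with Il17rb (0.768 without that step), Il13 0.759 (0.381) and Il17rc 0.647. Il17re had 0.281, Il5 0.021, Il17ra -0.061 and Il4ra -0.466. The arrays share genotype groups, a Gapdh ratio that differs between these groups and the choice of Il17rb, Il4 and Il13, so these values carry no p. Of 11378 genes at or above the median level, those most like Il17rb were Cox5a (0.988), Chdh (0.980), Socs2 (0.975), Glo1 (0.964) and Mcm4 (0.960). Without the step the values were 0.494, 0.686, 0.736, 0.694 and 0.616. Cox5a is a subunit of cytochrome oxidase, Socs2 an inhibitor of cytokine signalling, Glo1 an enzyme that detoxifies methylglyoxal and Mcm4 a subunit of the replicative helicase. Their me minus WT differences were -0.14 for Cox5a, -0.74 ± 0.36 for Socs2, -0.16 for Glo1 and -0.20 for Mcm4. With set as a block Socs2 differed by -0.89 ± 0.08 in me minus WT, with a limma adjusted p of 0.025, and 2 of the 3 probe sets called in that fit are those of Socs2. Socs2 has 6 probe sets, and those not called had me minus WT differences from -0.20 to -0.03 without the block. Socs2 was named for its likeness to Il17rb in these arrays, so its lower level in me is not separate support.

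Other genes of the pathway were read from lists, and none of the list genes passed the test in either direction in any comparison, with or without the block. All 4 measured IL-17 family ligands had lower means in me than in WT, with a median difference of -0.10, which was -0.05 with set as a block. Il25, which encodes a ligand of Il17rb, differed by -0.15 ± 0.19, and by -0.08 with the block. Il17a differed by -0.26 ± 0.56, and by -0.02 ± 0.09 with the block. Of 18 genes of IL-17 and IL-25 receptor signalling, 14 were higher and 4 lower, with a median of 0.06, which was -0.01 with set as a block. Tnfaip3, an inhibitor of NF-kB, differed by 0.19. Of 26 receptors and signalling genes of type 2 cytokines and alarmins, a list that includes Ptpn6, 16 were higher and 10 lower, with a median of 0.04. Irs2, an adaptor of insulin and IL-4 receptors, differed by 0.31 ± 0.12. Stat6, the factor activated by Il4ra and named here for that role after its values were seen, averaged 9.64 ± 0.14 in me, 9.33 ± 0.33 in he and 9.49 ± 0.20 in WT (SD).

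Among 15 other T cell cytokines 7 were higher and 8 lower in me than in WT. Csf2, which encodes GM-CSF, had a me minus WT difference of -0.33 ± 0.11 and a he minus WT difference of -0.09, the first with a limma adjusted p of 1.0. Il9 differed by -0.18. Of 28 type 2 transcription factors and locus regulators, 17 were higher and 11 lower, with a median of 0.03. Bhlhe40, a transcription factor of cytokine-producing T cells, averaged 11.03 ± 0.17 in me, 10.33 ± 0.08 in he and 10.34 ± 0.20 in WT. Its me minus WT difference was 0.69 ± 0.12, with a blocked adjusted p of 0.46. Gata3, the main factor of type 2 T cells and likewise named for its role, averaged 9.38 ± 0.29 in me, 9.41 ± 0.39 in he and 9.43 ± 0.28 in WT. Of 12 type 2 surface markers, 7 were higher and 5 lower, with a median of 0.01 (0.10 with set as a block).

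**Figure D4:**
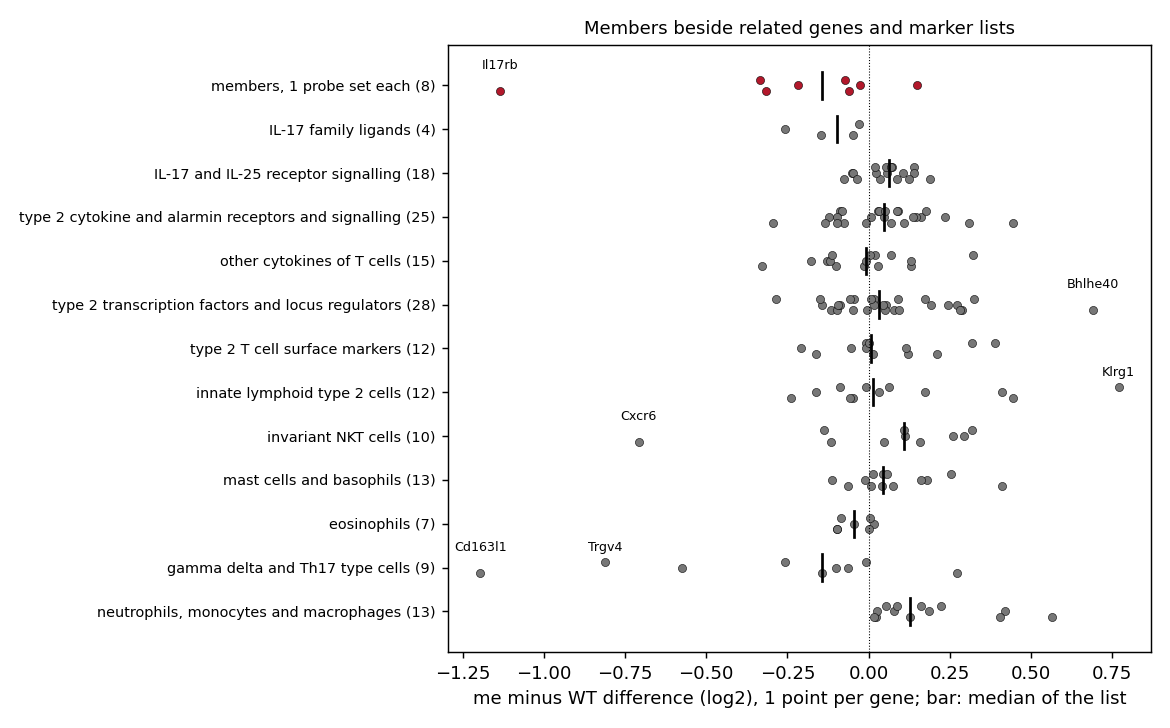
Me minus WT difference on the log2 scale (horizontal) with a point per gene and a bar at the median, for the 8 members in the top row, 6 lists of related genes and 6 lists of markers of other cell types, with Ptpn6 left out and list sizes in brackets. Il17rb at -1.13 and Cd163l1 at -1.20 lie farthest below 0, and Klrg1 and Bhlhe40 farthest above it.

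Markers of other cell types that can carry Il17rb or make these cytokines were read beside these values. Of 12 markers of innate lymphoid type 2 cells, 6 were higher and 6 lower in me than in WT, with a median of 0.01 (-0.02 with set as a block). Their summed normalised intensity was 15005 to 18473 in me, 12609 to 17778 in he and 12435 to 16140 in WT. Bright genes lead such sums, and Il7r, on this list, was above 98.7% of all probe sets. Gata3 and Rora are also on the list of type 2 transcription factors. The sums here and below, and that of the Treg and CD4 T cell markers, are therefore not levels of a single cell type. Klrg1, an inhibitory receptor, differed by 0.77 ± 0.57. Of 10 markers of invariant NKT cells, 7 were higher and 3 lower, with sums of 10644 to 14055 in me, 8862 to 12535 in he and 8769 to 12598 in WT. Cxcr6, one of them, averaged 8.58 ± 0.18 in me, 9.24 ± 0.47 in he and 9.29 ± 0.32 in WT (SD), a me minus WT difference of -0.71 ± 0.24. Slamf6, another of them, differed by 0.29 ± 0.13 in the other direction, with every me array above every WT array. The list median was 0.11, and 0.05 with set as a block. Of 13 mast cell and basophil markers, 10 were higher and 3 lower, with sums of 2279 to 2852 in me, 2114 to 2560 in he and 2050 to 2603 in WT. The 7 eosinophil markers had 3 higher and 4 lower, with 5 below the median level and sums of 853 to 1243 in me, 871 to 1371 in he and 881 to 1226 in WT.

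Of 9 markers of gamma delta and Th17 type cells, 8 were lower in me than in WT, with a median of -0.14 (-0.02 with set as a block), and their sums were 5610 to 7603 in me, 6419 to 9977 in he and 6711 to 8886 in WT. Cd163l1, a scavenger receptor known from gamma delta T cells, averaged 8.81 ± 0.25 in me, 9.52 ± 0.78 in he and 10.00 ± 0.54 in WT, a me minus WT difference of -1.20 ± 0.38. Trgv4, a gamma chain segment, differed by -0.81 ± 0.34 and the kinase Blk by -0.57 ± 0.23. All 13 markers of neutrophils, monocytes and macrophages had higher means in me than in WT, with sums of 3088 to 3543 in me, 2808 to 3330 in he and 2742 to 3016 in WT, so that every me array was above every WT array. S100a8 differed by 0.56 ± 0.14 and S100a9 by 0.42 ± 0.12. Of 10 markers of follicular helper T cells, which can make IL-4, 7 were higher and 3 lower, with a median of 0.04 (0.11 with set as a block). Their sums were 13198 to 14533 in me, 9493 to 12944 in he and 10102 to 12415 in WT, so every me array was above every he and WT array. Slamf6, Icos and Sh2d1a are on this list and on that of invariant NKT cells, and Bcl6, the defining factor of these cells, differed by -0.28 ± 0.18. Of 9 B cell markers 5 were higher and 4 lower, with sums of 1557 to 2027 in me, 1444 to 1849 in he and 1420 to 1988 in WT. The part of these cell types, of the Gapdh ratio and of sex in the Il17rb, Il4 and Il13 values was not tested. By Xist and Eif2s3y, me 1, me 2, WT 2 and WT 4 were male and the others, all he arrays among them, female. With set and sex as blocks the he minus WT difference of Il17rb was -0.06.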

How the data were processed

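RNA of 10 arrays was analysed. Each deposited value is the linear intensity of a probe set on an array, judged from the values. How the authors summarised, corrected and scaled them is not given in the sources used. Array medians ran from 148 to 188. Of 45101 probe sets, 64 controls were left out. By the array annotation 34945 probe sets have 1 gene, 932 have several and 9160 have none. A gene was represented by its probe set with the highest mean. Values were transformed as log2(intensity + 32), quantile normalised and fitted with limma 3.58.1 in R 4.3.3, without a block, over all 10 arrays (7 residual degrees of freedom). Correlation of the arrays gave the array sets, found after the data were seen, and set and sex were added as blocks.

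The member genes, lists and tests were chosen with earlier results of these data known. Genes named are the members, Ptpn6, the neighbours, the 5 most like Il17rb and up to 4 of each list with the smallest p; Stat6 and Gata3 fall outside this rule and were named after their values were seen. Whether replicate numbers pair the arrays is not known. Deviations of same-numbered arrays from their genotype means correlated from -0.873 to 0.941. These correlations were positive within an array set and negative between sets, so they followed the sets and could not decide it. Fits with and without the set block were run on simulated data with known changes, and recovery of these was required only with the block. Promoters came from RefSeq GRCm38.p6, and a window was found for 8 of the 9 genes. Precision is limited by the number of arrays.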

Additional observations from a re-analysis of the deposited data

How the results depend on the processing

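Il17rb stayed lower in me than in WT in 24 of 24 alternatives, from -1.37 with array weights to -0.96 within array set B, and from -1.24 to -1.01 when each array was left out. The gene was chosen by this difference in these same arrays, so the kept sign is not separate support. The number of probe sets called in me against WT was 3 with array set as a block, 2 with array weights and 0 to 2 with an array left out (2 without me 2). In me against he it was 27288 with array weights and 0 to 2 with an array left out (2 without me 2). The array weights did not converge and gave me 3 a weight of 26.6 and he 2 one of 7.08, against 0.27 to 0.83 for the others, so their counts rest on those arrays; with them Il17ra, Il17re and Il4ra passed the threshold in me against he. The sign turned for Il17ra in he minus WT (-0.039 without normalisation, -0.059 with median centring, -0.037 with set and sex), in me minus he (0.0076, 0.047 and 0.084 in the same settings) and in me minus WT (0.022 with a replicate block, 0.021 with the set block, 0.029 as the mean of all probe sets, 0.047 with set and sex). It also turned for Il4ra in he minus WT (0.018, set block), for Il17rc (0.019 me minus WT, -0.027 he minus WT, 0.046 me minus he) and for Il17re in he minus WT (0.387), the last 4 with array weights. With an array left out, me minus WT ran from -0.161 to 0.061 for Il17ra, -0.122 to 0.0081 for Il17rc and -0.195 to 0.022 for Il5. He minus WT ran from -0.053 to 0.172 for Il17ra, -0.0023 to 0.116 for Il17rc, -0.293 to 0.110 for Il17re and -0.221 to 0.057 for Il4ra, and me minus he from -0.083 to 0.140 for Il5. The replicate block called 0 probe sets and left every other call as it was. Within a single array set, where no test was run, me minus WT turned for Il17ra (0.101, set A) and Il5 (0.062, set B). He minus WT turned there for Il17ra (-0.064, set B), Il17rc (-0.036, set A), Il4ra (0.092, set A) and Il5 (0.00099, set A). Me minus he turned for Il4ra (-0.014, set A) and Il5 (-0.039, set A). The cause of these turns was not tested. A filter on low values leaves out Il4, Il5 and Il17rc, which lie below the median level, where a small difference is hardest to measure.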
